A study of Mus musculus with 15 samples.

Results

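A set of 10 genes that mark megakaryocytes and blood platelets was followed in transplanted mouse blood progenitors that carried HOXB4 or a control vector. The genes are Pf4, Ppbp, Itga2b, Itgb3, Gp5, Gp9, Vwf, Treml1, Rab27b and Plek, taken by symbol from the annotation of the array, and 10 of 10 were found, with 15 probe sets, among 17097 genes with 28898 probe sets. The probe set with the highest mean signal was tested for each gene, and the other probe sets of Itgb3, Rab27b and Plek served as a check. The genes were taken by symbol, but the genes, lists and tests were chosen with earlier results of these data known. Their counts beside those of all genes are therefore descriptions and not an unbiased contrast. The choice of probe set used the mean signal over all 15 arrays, without regard to group.

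HOXB4 cells carried MSCV-HOXB4-ires-YFP, a retrovirus that expresses HOXB4 together with a yellow fluorescent protein, and were taken 6, 12 and 20 weeks after transplantation. GFP cells carried MSCV-ires-GFP, which has the green fluorescent protein alone, and were taken at 12 and 20 weeks. Each of the 5 groups had 3 arrays. GFP cells of 6 weeks were not analysed here. All groups share the rest of the procedure: marrow of female C57Bl/6 mice given 5-fluorouracil was transduced and put into lethally irradiated recipients, and fluorescent LSK cells were sorted from their marrow. LSK cells are the lineage-negative, Sca-1-positive, Kit-positive fraction that holds stem cells and early progenitors. The titles name 20 weeks for the last time while the series text names a later week, and the titles were followed. Separate mice are not stated in the labels for the replicate arrays, so a p-value measures array-to-array spread, which may be technical.

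Megakaryocytes are the large marrow cells that shed platelets. They arise from blood stem cells both through shared progenitors and along a shorter route, and some stem cells already carry transcripts of this lineage, Vwf and Itga2b among them. The 10 genes fall into 3 kinds. Pf4, Ppbp and Vwf encode proteins stored in platelet granules, Itga2b, Itgb3, Gp5 and Gp9 encode subunits of the platelet's adhesion receptors, and Treml1, Rab27b and Plek take part in platelet activation, granule traffic and signalling.

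Values are log2 signals from robust multi-array averaging (RMA), so a difference of 1 is a doubling, and levels of different genes cannot be set against each other because probes differ in brightness. Differences come from limma with 1 mean per group over all 15 arrays, and called genes are those with a Benjamini-Hochberg adjusted p, over all 17097 genes, under 0.05. The fit gives each gene 1 spread shared by the 5 groups, and standard errors and intervals rest on it. Group spreads were unequal. The standard deviation of Pf4 was 0.099 in HOXB4 cells at 12 weeks and 1.07 in GFP cells at 20 weeks. The median signal of the arrays lay between 5.247 and 5.397, and the number of arrays limits the precision. The difference between the 3' and 5' probe sets of Gapdh, a sign of RNA quality, was 3.764 on HOXB4 replicate 1 at 6 weeks and between 0.809 and 2.016 on the other 14 arrays. Of 9 listed LSK genes 7 were measured, and their mean signal per array lay between 6.66 and 7.63, with the lowest 3 arrays all from GFP at 20 weeks. In sorted bulk samples, fewer cells of a type and less of its RNA per cell cannot be told apart.

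**Figure D1:**
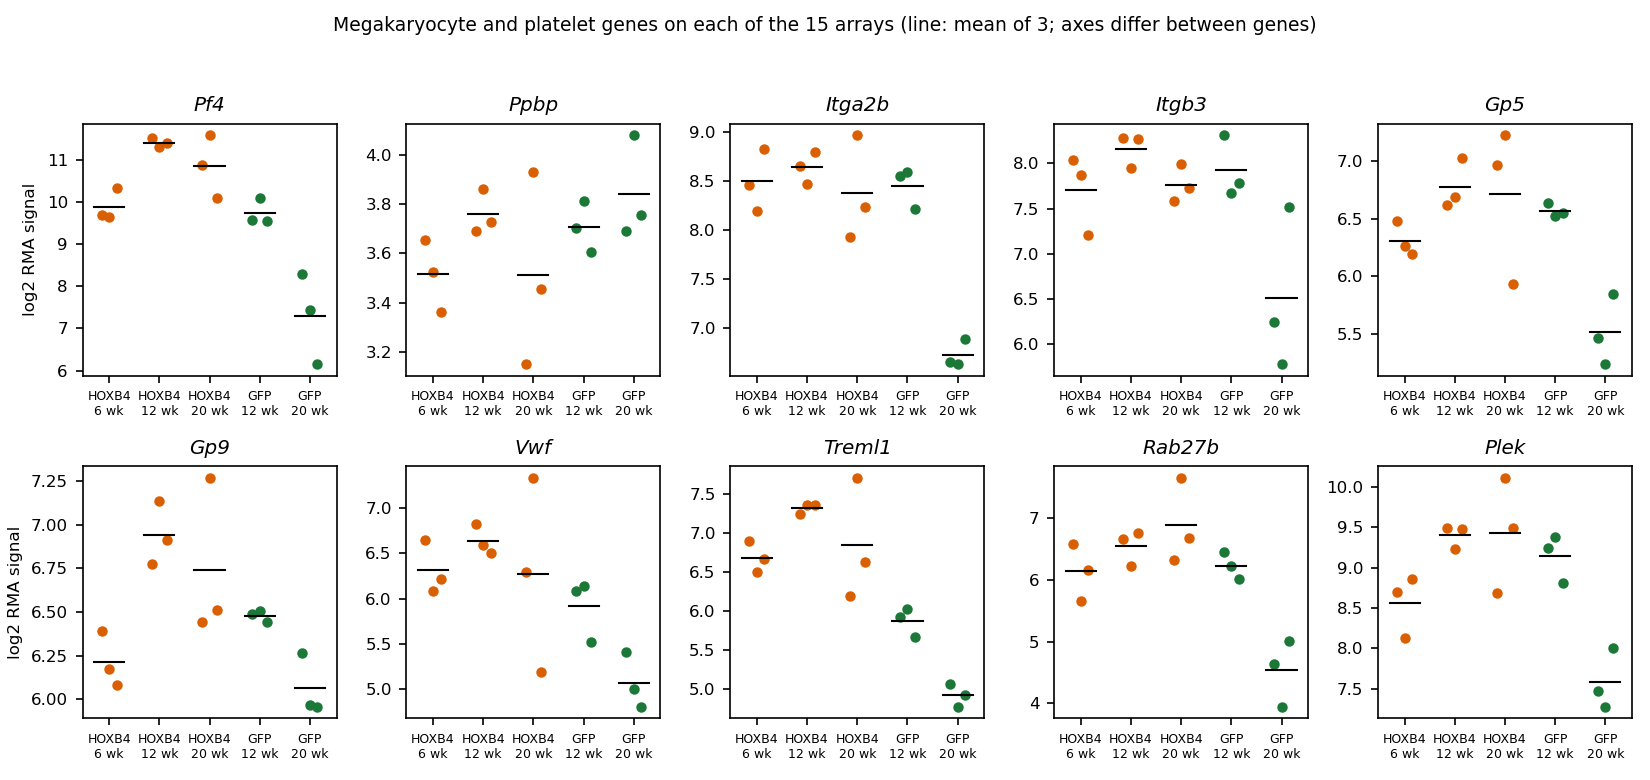
Log2 RMA signal of the 10 genes on each array (points, 3 a group; the line is the group mean), with HOXB4 groups in orange and GFP groups in green and a separate vertical axis for each gene. The 3 GFP arrays at 20 weeks lie below all 3 HOXB4 arrays at 20 weeks for 8 of the 10 genes, the exceptions being Ppbp and Vwf.

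Pf4 and Ppbp encode platelet factor 4 and the precursor of a neutrophil-attracting chemokine, a pair of CXC chemokines packed into the same granules. Their genes neighbour each other on chromosome 5, with 0 annotated genes starting between them. To show the start region of Pf4, the gene with the largest difference at 20 weeks, beside that of its neighbour, and those of Gp5 and Itga2b for comparison, the RefSeq promoters of GRCm38.p6 are given 5′ to 3′ from 250 bases before to 50 bases after the start. Capitals mark AGATAA, bound by GATA factors, or GGAAG, which holds the shorter GGAA core bound by ETS factors. Both strands were searched, and a match on the opposite strand reads TTATCT or CTTCC. GGAA followed by another base is not marked.
Pf4, chr5:90772185-90772484, plus strand: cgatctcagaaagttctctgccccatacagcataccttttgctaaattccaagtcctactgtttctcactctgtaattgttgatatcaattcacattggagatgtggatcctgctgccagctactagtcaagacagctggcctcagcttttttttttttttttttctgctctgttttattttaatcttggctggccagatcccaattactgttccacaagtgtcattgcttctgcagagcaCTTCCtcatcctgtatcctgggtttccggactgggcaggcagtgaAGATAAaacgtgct
Ppbp, chr5:90768268-90768567, plus strand: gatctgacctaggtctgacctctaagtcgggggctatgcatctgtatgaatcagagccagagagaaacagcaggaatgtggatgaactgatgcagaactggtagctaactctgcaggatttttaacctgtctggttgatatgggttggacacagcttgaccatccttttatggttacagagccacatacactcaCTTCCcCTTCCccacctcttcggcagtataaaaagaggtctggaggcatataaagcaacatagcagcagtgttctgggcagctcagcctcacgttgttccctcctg
Itga2b, chr11:102469834-102470133, minus strand: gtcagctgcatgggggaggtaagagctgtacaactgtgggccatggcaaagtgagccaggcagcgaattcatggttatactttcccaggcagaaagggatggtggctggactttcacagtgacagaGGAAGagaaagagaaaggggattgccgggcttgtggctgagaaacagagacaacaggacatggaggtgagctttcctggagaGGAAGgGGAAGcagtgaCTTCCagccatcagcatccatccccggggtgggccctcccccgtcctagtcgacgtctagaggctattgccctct
Gp5, chr16:30310732-30311031, minus strand: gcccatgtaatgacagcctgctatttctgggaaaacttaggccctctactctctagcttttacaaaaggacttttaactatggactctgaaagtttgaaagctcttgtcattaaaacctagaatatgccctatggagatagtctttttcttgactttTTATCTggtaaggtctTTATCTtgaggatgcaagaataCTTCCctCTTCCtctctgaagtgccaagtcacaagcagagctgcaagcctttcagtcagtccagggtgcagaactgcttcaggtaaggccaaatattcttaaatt
In these windows AGATAA begins 36 bases after the start in Pf4, and in Gp5 it lies on the opposite strand, 93 and 77 bases before the start. Itga2b holds GGAAG 4 times and no AGATAA. Of the 10 genes, 7 had a promoter in the table (Pf4, Ppbp, Itga2b, Gp5, Gp9, Treml1 and Plek), and AGATAA occurred in 2 of the 7, against 11.2% of all 32851 promoters of the same length. GGAAG occurred in 6 of the 7, all but Plek, against 71.4% of all promoters. The motifs do not overlap each other in the windows printed. A match of letters is a description, not a binding site.

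At 20 weeks HOXB4 cells carried more of most of these transcripts than did the GFP cells. Of the 10 genes 8 were called higher and 0 lower, where 3.77% of all genes were called higher and 5.18% lower. The median difference of the 10 was 1.455, against 0.022 over all genes. All HOXB4 arrays lay above all GFP arrays for 8 of the 10 genes, against 12.9% of all genes.

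Among the granule proteins, Pf4 had signals of 10.88, 11.58 and 10.09 on the HOXB4 arrays at 20 weeks, against 8.28, 7.44 and 6.15 on the GFP arrays at 20 weeks. All 3 HOXB4 arrays lay above all 3 GFP arrays, and the GFP arrays were spread over more than 2 log2 units. The difference was 3.56 ± 0.43 (SE), which is 11.8-fold (adjusted p = 0.000134 by limma). Ppbp had 3.15, 3.93 and 3.46 in HOXB4 cells, against 3.69, 4.08 and 3.76 in GFP cells. These arrays overlapped, and the difference of -0.33 ± 0.17 was not called (adjusted p = 0.272 by limma). Its mean over the 15 arrays, 3.67, lay below the signal of 4.81 that bounds the dimmest 1 in 3 genes, so Ppbp may not have been above background on any array, and its values do not show that its transcript was stable. The means of the other 9 genes lay above that bound. Leaving out 1 array moved the difference of Ppbp between -0.54, without HOXB4 replicate 2 at 20 weeks, where it was called lower (adjusted p = 0.0410 by limma), and -0.149, without HOXB4 replicate 1 at 20 weeks (adjusted p = 0.661 by limma).

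Vwf, which encodes the von Willebrand factor that tethers platelets to damaged vessels, had 6.30, 7.34 and 5.19 in HOXB4 cells, against 5.41, 5.00 and 4.80 in GFP cells at 20 weeks. HOXB4 replicate 3 lay below GFP replicate 1, while the other two HOXB4 arrays were above all GFP arrays. The difference of 1.20 ± 0.38 missed the threshold (adjusted p = 0.0636 by limma). It was called without HOXB4 replicate 3, at 1.75 (adjusted p = 0.00215 by limma), and was 0.67 without HOXB4 replicate 2 (adjusted p = 0.204 by limma), so its size rested on single arrays. Endothelial cells also express Vwf. Of 8 endothelial markers, 1 (Tek) was called higher at 20 weeks, and their mean signal per array was 5.28 to 5.75 in HOXB4 cells and 4.95 to 5.12 in GFP cells. The part of these cells in the Vwf values was not tested.

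All 4 receptor genes were called higher. Itga2b encodes CD41, the alpha chain of the fibrinogen receptor, which is also found on early progenitors. It had 7.92, 8.97 and 8.23 in HOXB4 cells, against 6.65, 6.63 and 6.89 in GFP cells at 20 weeks. The arrays were well apart, and the difference was 1.66 ± 0.23, or 3.15-fold (adjusted p = 0.000309 by limma). Its partner Itgb3, the beta chain CD61, had 7.58, 7.99 and 7.72 in HOXB4 cells, against 6.24, 5.77 and 7.52 in GFP cells. GFP replicate 3 came close to the lowest HOXB4 array, though the groups did not overlap. The difference of Itgb3 was 1.25 ± 0.34, or 2.39-fold (adjusted p = 0.0328 by limma).

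A second probe set of Itgb3 gave 0.46 ± 0.20 at 20 weeks and was not called (adjusted p = 0.189 by limma over all named probe sets). Its mean over the 15 arrays was 4.66, below the bound of 4.81, and the part of its low signal in this was not tested. The call of Itgb3 was also lost without GFP replicate 1, GFP replicate 2, HOXB4 replicate 2 or HOXB4 replicate 3 of the 20-week groups, with adjusted p-values up to 0.170 by limma.

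Gp5 and Gp9 encode glycoproteins of the complex that binds von Willebrand factor. Gp5 had 6.97, 7.23 and 5.94 in HOXB4 cells, against 5.47, 5.24 and 5.85 in GFP cells at 20 weeks. Its lowest HOXB4 array and its highest GFP array lay next to each other without crossing, and the difference was 1.19 ± 0.25, or 2.29-fold (adjusted p = 0.00826 by limma). Gp9 had 6.44, 7.27 and 6.51 in HOXB4 cells, against 6.27, 5.97 and 5.96 in GFP cells. HOXB4 replicate 2 stood well above the other arrays, and the difference of 0.68 ± 0.19, or 1.60-fold (adjusted p = 0.0330 by limma), was the smallest of the 8 called. Without that array it was 0.41 and no longer called (adjusted p = 0.0993 by limma), and it was also lost without GFP replicate 2 (adjusted p = 0.127 by limma) or GFP replicate 3 (adjusted p = 0.0875 by limma). The call of Gp5 was lost without GFP replicate 2 (adjusted p = 0.0508 by limma).

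The remaining genes were higher too. Treml1 encodes a receptor of platelet granule membranes that moves to the surface on activation. It had 6.19, 7.71 and 6.63 in HOXB4 cells, against 5.07, 4.78 and 4.93 in GFP cells at 20 weeks. Every HOXB4 array was more than 1 log2 unit above every GFP array, and the difference was 1.92 ± 0.27, or 3.77-fold (adjusted p = 0.000384 by limma).

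Rab27b, a small GTPase that directs dense granules, had 6.31, 7.65 and 6.68 in HOXB4 cells, against 4.65, 3.95 and 5.01 in GFP cells. The groups were again apart, and the difference was 2.35 ± 0.33 (adjusted p = 0.000393 by limma). The GFP mean of 4.53 lay below the bound of 4.81 and may not have been above background, so no fold is given. Its other 2 probe sets gave 1.71 ± 0.36 and 0.62 ± 0.18 and were both called higher, and averaging its probe sets gave 1.56. In GFP cells these had means of 4.29 and 4.11, again below the bound, and the probe set with the smallest difference had a mean of 4.61 over the 15 arrays.

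Plek encodes pleckstrin, the main substrate of protein kinase C in platelets, which is also made in other white blood cells. It had 8.69, 10.12 and 9.49 in HOXB4 cells, against 7.47, 7.27 and 7.999 in GFP cells at 20 weeks. No GFP array reached the lowest HOXB4 array. The difference was 1.85 ± 0.30, or 3.60-fold (adjusted p = 0.00120 by limma), and the other 2 probe sets of Plek gave 1.66 ± 0.32 and 1.59 ± 0.26, both called higher. Pf4, Itga2b, Treml1, Rab27b and Plek were called at 20 weeks under each of the 25 alternatives tried, 10 of processing and 15 that leave out 1 array.

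At 12 weeks the same comparison gave smaller differences. Of the 10 genes 2 were called higher, Pf4 and Treml1, and 0 lower, where 1.82% of all genes were called higher and 2.2% lower. All 10 differences were above 0, with a median of 0.286 against -0.016 over all genes. The arrays did not overlap for 4 genes (Pf4, Gp9, Vwf and Treml1), with HOXB4 above, against 14.4% of all genes.

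Pf4 had 11.50, 11.30 and 11.38 in HOXB4 cells at 12 weeks, against 9.57, 10.08 and 9.53 in GFP cells. The HOXB4 arrays were tightly grouped above the GFP arrays, and the difference was 1.67 ± 0.43, or 3.18-fold (adjusted p = 0.0442 by limma). Treml1 had 7.24, 7.36 and 7.36 in HOXB4 cells, against 5.93, 6.03 and 5.67 in GFP cells. Here both groups were tight and far apart, and the difference was 1.44 ± 0.27, or 2.72-fold (adjusted p = 0.00934 by limma). The call of Pf4 stood close to the threshold and was lost in 8 of the 15 fits without 1 array, those without any single array of either 12-week group, without GFP replicate 2 or without HOXB4 replicate 1 at 20 weeks (adjusted p between 0.0511 and 0.156 by limma). Treml1 lost its call without GFP replicate 3 at 12 weeks (adjusted p = 0.0507 by limma), which left 0 of the 10 genes called.

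The other 8 genes were not called at 12 weeks. Vwf had 6.82, 6.59 and 6.501 in HOXB4 cells, against 6.08, 6.14 and 5.52 in GFP cells, a difference of 0.72 ± 0.38 (adjusted p = 0.311 by limma). Gp9 had 6.77, 7.14 and 6.91 in HOXB4 cells, against 6.49, 6.51 and 6.45 in GFP cells, a difference of 0.46 ± 0.19 (adjusted p = 0.185 by limma). Neither gene's groups overlapped, yet neither difference passed the test with the shared spread. In a fit of only the groups compared, Vwf (adjusted p = 0.0162 by limma) and Gp9 (adjusted p = 0.0210 by limma) were called. The signals of the remaining 6 overlapped between the groups, with differences of 0.32 for Rab27b, 0.25 for Plek, 0.24 for Itgb3, 0.21 for Gp5, 0.19 for Itga2b and 0.05 for Ppbp. For Itga2b the 95% interval ran from -0.30 to 0.67 at 12 weeks, which leaves room for a rise, and from 1.17 to 2.14 at 20 weeks. The direct test of the change between the times is given below, and it was not called for Itga2b.

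**Figure D2:**
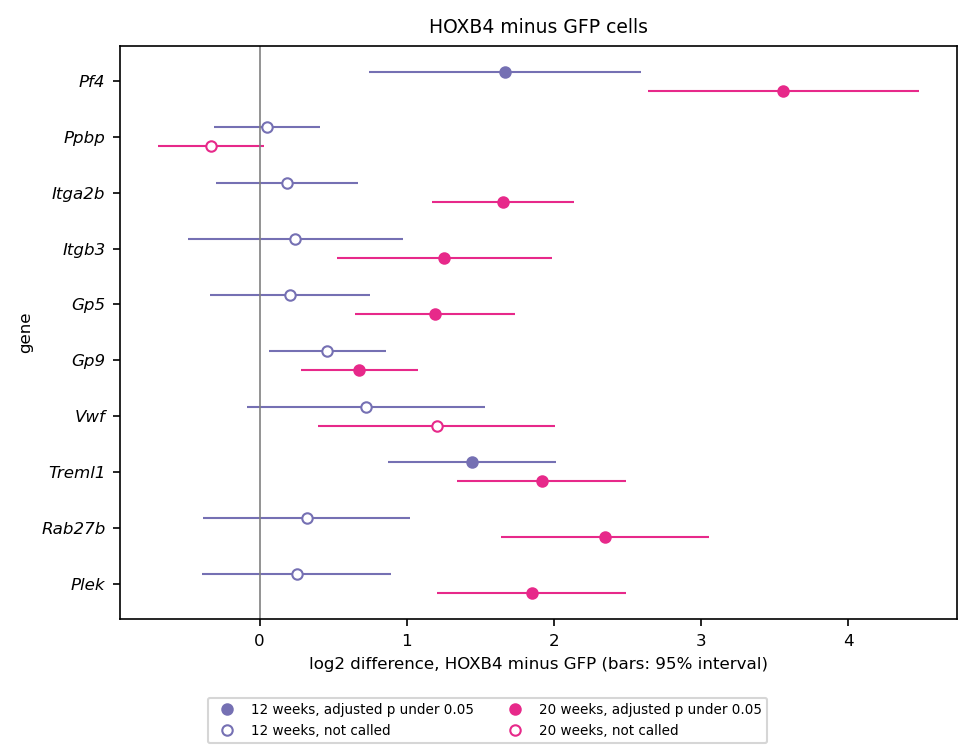
Log2 difference, HOXB4 minus GFP (horizontal axis), for each gene at 12 and 20 weeks, with 95% intervals from limma as bars and filled points for an adjusted p under 0.05. Filled points stand at 12 weeks for Pf4 and Treml1 and at 20 weeks for 8 genes, with Vwf and Ppbp open at both times.

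As a mean over both times, 9 of the 10 genes were called higher in HOXB4 cells, all but Ppbp, where 6.19% of all genes were called higher and 9.16% lower. Vwf, which missed the threshold at each time alone, had a mean difference of 0.96 ± 0.27 (adjusted p = 0.0251 by limma). Its call was lost without GFP replicate 3 or HOXB4 replicate 1 of the 12-week groups, or without GFP replicate 2 or 3 at 20 weeks. Itgb3 was barely past the threshold at 0.75 ± 0.24 (adjusted p = 0.0499 by limma) and lost its call in 11 of the 15 fits without 1 array, among them those without any single HOXB4 array of 12 or 20 weeks. Gp5 lost its call without GFP replicate 2 at 20 weeks (adjusted p = 0.0501 by limma).

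Whether the HOXB4 effect itself was larger at 20 than at 12 weeks was tested as the difference of the 2 differences. It was above 0 for 9 of the 10 genes, with Ppbp at -0.38, but 0 were called, where 0.123% of all genes were called higher and 0.386% lower. At an unadjusted p under 0.05, limma gave 5 of the 10: Pf4, Itga2b, Gp5, Rab27b and Plek. The share of all genes at that unadjusted level was not counted, so the 5 cannot be set against it. Itga2b came nearest, with an effect 1.47 ± 0.32 larger at 20 weeks (adjusted p = 0.0601 by limma). Rab27b followed, with an effect 2.03 ± 0.47 larger (adjusted p = 0.0789 by limma), while its other, dimmer probe sets gave 1.10 and 0.21. Pf4 had an effect 1.89 ± 0.61 larger at 20 weeks (adjusted p = 0.235 by limma). For Treml1 the difference of 0.47 had a 95% interval from -0.34 to 1.28, and for Gp9 the difference of 0.22 had one from -0.34 to 0.78, so neither shows equal effects.

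These counts moved with single arrays. Itga2b, Rab27b and Plek were called without HOXB4 replicate 1 at 20 weeks, Itga2b, Itgb3 and Rab27b without GFP replicate 3 at 20 weeks, Gp5 without HOXB4 replicate 3 at 20 weeks, and Itga2b without HOXB4 replicate 3 at 6 weeks. The larger effect at 20 weeks was therefore not established for any single gene of the 10.

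Within each vector, the change with time was read separately. In GFP cells 6 of the 10 genes were called lower at 20 than at 12 weeks and 0 higher, where 1.14% of all genes were called lower and 1.23% higher. The median difference of the 10 was -1.232, against -0.036 over all genes. For 9 genes, all but Ppbp, the 20-week arrays lay below the 12-week arrays without overlap, against 14.1% of all genes. This comparison and the one with HOXB4 cells at 20 weeks use the same 3 GFP arrays, so neither count is independent of the other.

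In GFP cells Pf4 had the 20-week signals given above, 8.28, 7.44 and 6.15, against 9.57, 10.08 and 9.53 at 12 weeks. It fell by 2.44 ± 0.43 on the log2 scale, a 5.41-fold change (adjusted p = 0.0067 by limma). Itga2b, at 6.65, 6.63 and 6.89 at 20 weeks against 8.55, 8.59 and 8.22 at 12 weeks, fell by 1.73 ± 0.23 (adjusted p = 0.000731 by limma). For both genes each 20-week array was more than 1 log2 unit below each 12-week array.

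Rab27b had 4.65, 3.95 and 5.01 in GFP cells at 20 weeks, against 6.45, 6.22 and 6.02 at 12 weeks, and was lower by 1.70 ± 0.33 (adjusted p = 0.0120 by limma), a size that is uncertain because the 20-week mean lay below the bound of 4.81. Plek had 7.47, 7.27 and 7.999 at 20 weeks, against 9.25, 9.38 and 8.81 at 12 weeks, and fell by 1.57 ± 0.30 (adjusted p = 0.0108 by limma). The other 2 probe sets of Plek were called lower too, at -1.66 and -1.53, while those of Rab27b, at -1.43 and -0.40, were not called.

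Itgb3 and Gp5 fell by 1.41 ± 0.34 and 1.05 ± 0.25, both just past the threshold (adjusted p = 0.0429 and 0.0432 by limma). The second, dim probe set of Itgb3 gave -0.36 and was not called, and with the mean of its probe sets Itgb3 stood at -0.89 (adjusted p = 0.0697 by limma). Treml1 stood at -0.95 (adjusted p = 0.0883 by limma), Vwf at -0.84 (adjusted p = 0.352 by limma) and Gp9 at -0.42 (adjusted p = 0.348 by limma), and none of these was called. Ppbp stood at 0.14.

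The calls of Pf4 and Itga2b in GFP cells held in all 15 fits without 1 array. Rab27b lost its call without GFP replicate 1 at 12 weeks or GFP replicate 2 at 20 weeks, and Plek lost its call without GFP replicate 1 or 2 of either time. Gp5 kept its call in 6 of the 15 fits and Itgb3 in 5, so the count of 6 genes ran from 2, without GFP replicate 1 at 12 weeks or GFP replicate 2 at 20 weeks, to 7. The seventh gene was Treml1, called without HOXB4 replicate 1 or HOXB4 replicate 2 at 20 weeks.

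In HOXB4 cells 0 of the 10 genes were called between 20 and 12 weeks, where 0.0643% of all genes were called higher and 0.187% lower, and limma gave 0 of the 10 at an unadjusted p under 0.05. The differences ran from -0.55 for Pf4 to 0.33 for Rab27b. The other 2 probe sets of Rab27b gave -0.33 and -0.19, and leaving out 1 array brought its difference as low as -0.05, so its direction is not settled. The 95% interval for Itga2b was -0.75 to 0.22 in HOXB4 cells and -2.22 to -1.25 in GFP cells. That of Pf4 was -1.47 to 0.38 in HOXB4 cells and -3.36 to -1.51 in GFP cells. The direct test of a different change in each vector is the difference of differences above, which was not called for either gene. A p above the threshold does not show that the HOXB4 levels were equal at both times.

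**Figure D3:**
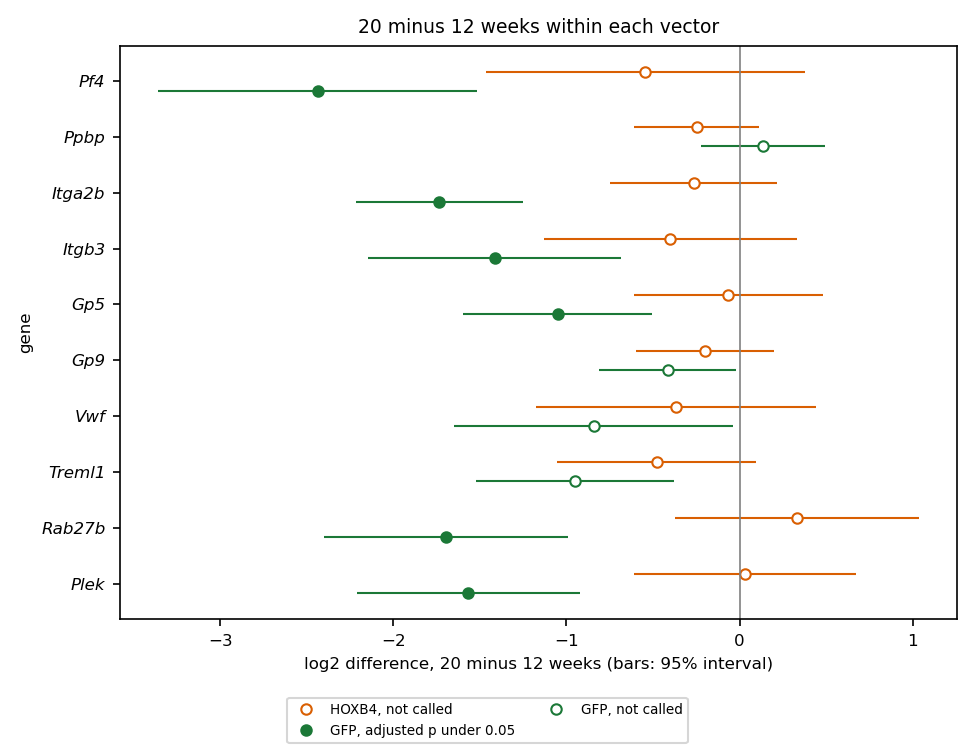
Log2 difference, 20 minus 12 weeks (horizontal axis), for each gene in HOXB4 cells (orange) and GFP cells (green), with 95% intervals from limma as bars and filled points for an adjusted p under 0.05. The 6 filled points are all in GFP cells, and the interval in HOXB4 cells includes 0 for each of the 10 genes.

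Against 6 weeks, HOXB4 cells at 12 weeks had a higher signal for all 10 genes, yet 0 were called, where 1.25% of all genes were called higher and 0.316% lower. At an unadjusted p under 0.05, limma gave 4 of the 10: Pf4, Gp9, Treml1 and Plek. Here too the share of all genes at that unadjusted level was not counted. Pf4 had 11.50, 11.30 and 11.38 at 12 weeks, against 9.69, 9.64 and 10.34 at 6 weeks, a difference of 1.51 ± 0.43 (adjusted p = 0.0857 by limma). Gp9 had 6.77, 7.14 and 6.91 at 12 weeks, against 6.39, 6.17 and 6.08 at 6 weeks, a difference of 0.73 ± 0.19 (adjusted p = 0.0627 by limma). The arrays of these genes were apart, as they were for 6 of the 10 genes, against 12.8% of all genes. Pf4 was called without GFP replicate 3 at 20 weeks, and Gp9 and Treml1 without HOXB4 replicate 2 at 20 weeks, arrays that bear on this comparison only through the shared spread and the adjustment. The Gapdh difference was 0.928, 1.02 and 0.97 on the 12-week arrays, against 3.764, 1.676 and 1.708 on the 6-week arrays, so this sign of RNA quality separates the groups. All 8 mature neutrophil markers were higher at 12 weeks, with 1 of them called and a median difference of 2.551, and all 6 measured B cell markers were higher, with 1 called and a median of 1.528. The part of RNA quality and of such cells in this comparison was not tested.

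Between 20 and 6 weeks in HOXB4 cells 0 of the 10 genes were called, where 3.3% of all genes were called higher and 1.36% lower. At an unadjusted p under 0.05 limma gave 4, and the share of all genes at that level was not counted. The largest differences were 0.96 for Pf4 (adjusted p = 0.222 by limma) and 0.87 for Plek (adjusted p = 0.114 by limma), and without HOXB4 replicate 2 at 20 weeks they were 0.60 and 0.53. The arrays did not overlap for 1 gene, Gp9, against 9.31% of all genes. Plek was called without HOXB4 replicate 1 at 20 weeks, at 1.24, and Gp5 without HOXB4 replicate 3 at 20 weeks. HOXB4 replicate 1 at 6 weeks, the array with the high Gapdh difference, was the highest of its group for 7 of the 10 genes, and for 35.8% of all genes.

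The genes also varied together between arrays of 1 group. HOXB4 replicate 2 at 20 weeks was the highest of its group for 10 of the 10 genes, while it was highest for 31.8% of all genes. The mean signal of the 10 genes on it was 7.98, against 7.04 and 6.99 on the other arrays of that group. It also had the highest mean of LSK markers, 7.625, and the lowest mean of mature neutrophil markers of that group, 6.436. Its mean of mast cell and basophil markers was 7.367, against 6.387 and 6.551 on the other arrays of that group. Without this array 6 of the 10 genes were called higher against GFP cells at 20 weeks, with Itgb3 and Gp9 lost. At 12 weeks the HOXB4 arrays differed little, with means of the 10 genes of 7.57, 7.48 and 7.62.

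Markers of other cells moved with these differences. Of 8 mature neutrophil markers 7 were called lower in HOXB4 cells against GFP cells at 20 weeks, and their mean signal per array was 6.44 to 7.82 in HOXB4 cells and 9.65 to 9.74 in GFP cells. In GFP cells 6 of the 8 were called higher at 20 than at 12 weeks, with means of 9.65 to 9.74 at 20 weeks and 6.55 to 7.42 at 12 weeks. All 7 markers of granulocyte and monocyte progenitors were called lower in HOXB4 cells at 20 weeks, with means of 7.67 to 8.53 in HOXB4 cells and 10.49 to 11.21 in GFP cells. At 12 weeks, where Pf4 and Treml1 were called, 6 of these 7 were called lower in HOXB4 cells too, with a median difference of -1.79 and means of 8.52 to 8.90 in HOXB4 cells and 10.36 to 10.51 in GFP cells. The neutrophil means at 12 weeks were 8.09 to 8.67 in HOXB4 cells and 6.55 to 7.42 in GFP cells, the opposite order to 20 weeks. All 6 measured B cell markers were called higher in HOXB4 cells at 12 weeks, with means of 8.80 to 9.43 in HOXB4 cells and 5.49 to 5.92 in GFP cells. Of the 7 measured LSK genes 0 were higher in GFP cells at 20 than at 12 weeks, and 2 were called lower. Their median difference was -0.707, against -0.036 over all genes. In HOXB4 against GFP cells 2 of the 7 were called higher at 20 weeks and 2 were called lower at 12 weeks. The part of these cell types in the values of the 10 genes was not tested.

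A pair of further lineages were looked at because they share a progenitor with megakaryocytes or express some of the same genes. Of 7 measured erythroid markers 0 were called higher or lower in HOXB4 against GFP cells at either time. Of 7 measured mast cell and basophil markers 2 were called higher and 2 lower at 20 weeks, with mean signals per array of 6.39 to 7.37 in HOXB4 cells and 5.96 to 6.14 in GFP cells.

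The wider lineage was read through 55 other genes in 6 lists, of which 47 were measured. At 20 weeks 10 of the 47 were called higher in HOXB4 cells and 3 lower, with a median difference of 0.088, against 1.455 for the 10 genes and 0.022 over all genes. As a mean over both times 11 of the 47 were called higher and 4 lower (Nfe2, F5, Myl9 and Flna). Of all genes 6.19% were called higher and 9.16% lower in that comparison. Differences between the lists were not tested.

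Among 8 measured transcription factors of megakaryocytes 5 were called higher in HOXB4 cells at 20 weeks and 0 lower, with a median difference of 0.841. Gfi1b, a repressor needed for megakaryocyte and red cell formation, had 8.56, 8.95 and 8.42 in HOXB4 cells, against 7.11, 6.49 and 7.74 in GFP cells. The groups did not overlap, and the difference was 1.53 ± 0.23 (adjusted p = 0.000762 by limma). Tal1, a partner of the GATA factors, exceeded its GFP level in HOXB4 cells by 1.42 ± 0.26, Gata2 by 1.35 ± 0.28, Zfpm1, which encodes the GATA cofactor FOG-1, by 1.11 ± 0.21, and Runx1 by 0.58 ± 0.10. Gata1, at 0.57 (adjusted p = 0.245 by limma), Fli1, at -0.01, and Nfe2, at -0.57 (adjusted p = 0.104 by limma), were not called at 20 weeks. As a mean over both times 5 of the 8 were called higher and 1 lower. The lower gene was Nfe2, at -0.58 ± 0.14 (adjusted p = 0.0137 by limma). In GFP cells Tal1, Gfi1b and Zfpm1 were called lower at 20 than at 12 weeks, at -1.52, -1.32 and -1.05. At 12 weeks 0 of the 8 were called in HOXB4 against GFP cells, with differences from -0.59 for Nfe2 to 0.63 for Gata2.

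Among 11 measured agonist receptors and signalling genes 4 were called higher at 20 weeks and 0 lower. Gng11, a G protein gamma subunit, had 6.70, 8.02 and 7.13 in HOXB4 cells, against 5.28, 4.81 and 5.43 in GFP cells. Its difference was 2.11 ± 0.26 (adjusted p = 0.000137 by limma), and it was also called at 12 weeks, at 1.07 ± 0.26. F2rl2, a cofactor for thrombin sensing in mouse platelets, exceeded its GFP level by 1.505 ± 0.27, Rgs18, a brake on G protein signalling, by 1.14 ± 0.20, and Tbxa2r, the thromboxane receptor, by 0.82 ± 0.20. The ADP receptors P2ry1 and P2ry12, at 0.27 each, were not called.

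The structural and storage genes were mostly not called. Of 8 measured granule cargo genes Mmrn1, which encodes a factor V binding protein, exceeded its GFP level in HOXB4 cells by 1.92 ± 0.34 at 20 weeks and by 1.38 ± 0.34 at 12 weeks, while F5, which encodes factor V, was lower at 20 weeks, at -0.82 ± 0.17. Of 9 measured adhesion and collagen receptors 0 were called higher and 1 lower, Cd36, at -0.67 ± 0.15. Gp1bb, a direct partner of Gp5 and Gp9 in their receptor complex, stood at 0.87 (adjusted p = 0.0643 by limma), and in GFP cells it was called lower at 20 than at 12 weeks, at -1.22. Of 7 measured secretion genes 0 were called at 20 weeks, including Rab27a, the close relative of Rab27b, at -0.92 (adjusted p = 0.0975 by limma). At 12 weeks Stx11, a fusion protein of platelet granules, was called higher, at 0.79. Of 4 measured cytoskeletal genes Flna, which encodes filamin A, was called lower at 20 weeks, at -0.71 ± 0.13. F5 and Cd36 were called higher in GFP cells at 20 than at 12 weeks, at 0.86 and 1.03, and Cd36 is also a scavenger receptor of macrophages. The group means of F5, from 3.92 to 4.79, and those of Cd36, from 3.72 to 4.96, lay below or near the bound of 4.81. So did the GFP means at 20 weeks of Gp1bb, 4.33, and Mmrn1, 4.87, and the sizes of differences that use these means are uncertain. Of 5 measured monocyte and macrophage markers 4 were called higher in GFP cells at 20 than at 12 weeks, and the part of such cells was not tested.

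**Figure D4:**
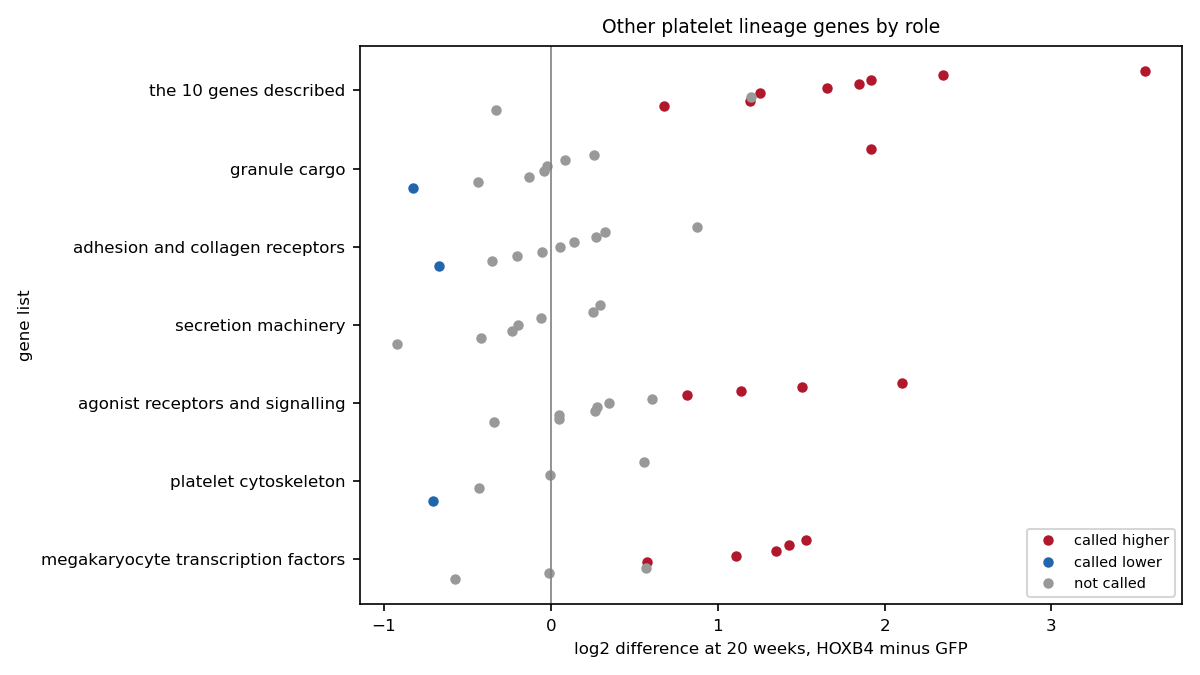
Log2 difference at 20 weeks, HOXB4 minus GFP (horizontal axis), for each measured gene (points) of the 10 genes described and of 6 further lists of the platelet lineage, with called genes in red where higher and blue where lower. Called higher genes number 8 of 10 in the first list, 5 of 8 among transcription factors and 4 of 11 among agonist receptors and signalling genes, and the other lists hold 0 or 1.

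The genes with the most similar pattern are given for the 8 genes called at 20 weeks, by the root mean square difference over the 15 arrays after each gene was centred on its own mean. Gng11 was among the nearest 3 of Treml1 (0.214, rank 1), Rab27b (0.351) and Pf4 (0.805), where a smaller value means a closer pattern. Ndrg1 was among the nearest 3 of Plek (0.270, rank 1), Itga2b (0.306) and Rab27b (0.372). The nearest gene was Tal1 for Itga2b (0.252), Zfpm1 for Gp5 (0.220), Slc14a1 for Rab27b (0.229) and Gnb4 for Pf4 (0.679). Bend4 was nearest to Itgb3 (0.330), followed by Gfi1b (0.338), and 2310010J17Rik was nearest to Gp9 (0.161). The value grows with how far a gene moves, so it cannot be compared between Pf4 and Gp9, and it is a description over arrays that share their groups.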

How the data were processed

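Sorted cells were measured on 15 arrays in 5 groups of 3. The values are log2 expression values deposited by the authors, 1 table of 45141 probe sets, for which the submitters' processing notes name Partek 6.5 and RMA. Filters and further scaling are not given in the sources used here, and no detection calls were used.

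Probe sets with 1 gene symbol (28898) were named through the platform annotation, and 28689 of them were matched to GRCm38.p6 symbols through the gene identifier, while 209 kept the annotation's symbol. Another 551 had several symbols and 15692 were not listed. Limma 3.58.1 in R 4.3.3 (lmFit, eBayes, two-sided, 10 residual and 4.55 prior degrees of freedom) tested 8 comparisons. An exact two-sided permutation test of 3 against 3 arrays cannot go below 0.1, so p-values rest on the model. The fits were run on simulated data with independent errors for each gene, which cannot show how they behave for genes that vary together.

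All 10 genes were reported. Other genes of the 6 lists were named where called in HOXB4 against GFP or over time in GFP, up to 6 a list, and a few uncalled ones (Gata1, Fli1, Nfe2, P2ry1, P2ry12, Rab27a, Gp1bb) after their values were seen. The genes, lists and tests were chosen with earlier results of these data known. Same-numbered arrays of different groups were checked for pairing: their deviations correlated between -0.167 and 0.115 over 30 pairs, with 2 above 0.1, so numbers were not treated as pairs. Listed genes with no probe set under 1 symbol were not analysed here.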

Additional observations from a re-analysis of the deposited data

Results flagged for a closer look

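Runx1, a transcription factor of stem cells and megakaryocytes, was below GFP in all 3 HOXB4 arrays at 12 weeks and above it in all 3 at 20 weeks. Its signals were 9.35, 9.34 and 9.36 in HOXB4 cells against 9.37, 9.45 and 9.43 in GFP cells at 12 weeks. At 20 weeks they were 9.46, 9.60 and 9.73 in HOXB4 cells against 8.94, 8.97 and 9.16 in GFP cells. The difference at 12 weeks was -0.07 ± 0.10 and was not called (adjusted p = 0.762 by limma). A lower level in HOXB4 cells at 12 weeks is thus not established. At 20 weeks the difference was 0.58 ± 0.10, called higher. The 2 effects differed by 0.65 ± 0.14, which missed the threshold (adjusted p = 0.0632 by limma). Runx1 was picked out by this pattern, and the share of all genes that show it was not counted. Read over time, Runx1 was higher at 20 than at 12 weeks on every HOXB4 array and lower on every GFP array, which is the same difference of 0.65.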

How the results depend on the processing

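Each of the 8 comparisons was repeated under 25 alternatives, 10 of processing and 15 that leave out 1 array. Under these, 0 called differences changed sign. Of the single-gene outcomes 1873 kept their side of the threshold, 33 passed it anew and 86 no longer passed it. The cause of the changes below was not tested. For HOXB4 against GFP at 12 weeks, 2 of the 10 genes were called, and 4 with only the groups compared, where Gp9 and Vwf passed too. The count was 1 each with all named probe sets, with a variance trend and robust moderation and without moderation. With array weights Gp9 was called too (adjusted p = 0.0350 by limma). Leaving out 1 array gave 0 to 2. At 20 weeks 8 became 5 with only the groups compared. Itgb3, Gp5 and Gp9 then lost their calls (adjusted p between 0.0969 and 0.157 by limma). Without 1 array the count was 5 to 8, where the 5 were without GFP replicate 2. For the mean of both times, 9 became 6 to 9 in both kinds of alternative. For the difference between the times, 0 became 1 with only the groups compared, 1 with trend and robust moderation and 4 with array weights, and 0 to 3 without 1 array. For HOXB4 at 12 against 6 weeks, 0 became 1 with only the groups compared and 1 with array weights, and 0 to 2 without 1 array. For HOXB4 at 20 against 12 weeks the count was 0 under each alternative, and at 20 against 6 weeks it was 0 to 1 without 1 array. For GFP at 20 against 12 weeks 6 became 1 without moderation and 2 to 7 without 1 array.

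With the replicate block, the paired fit that the check of pairing does not support, the counts were 2 at 12 weeks, 9 at 20 weeks, where Vwf was called (adjusted p = 0.0367 by limma), 8 for the mean, 0 for the difference and 4 for GFP over time. The filter that removes the dimmest 1 in 3 genes kept 11398 genes and 9 of the 10, not Ppbp, whose dim signal limits what can be read from it.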
